A study of Mus musculus with 13 samples.

Results

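The mitochondrial ribosomal protein genes described here are the mouse protein-coding genes whose symbol is Mrpl or Mrps followed by digits and an optional letter from a to d. The rule found 78 genes among 21887 protein-coding genes of the RefSeq annotation of GRCm38.p6 (mm10), 49 with a large-subunit symbol (Mrpl) and 29 with a small-subunit symbol (Mrps). The other 21809 genes served as the background. Chromatin immunoprecipitation with sequencing (ChIP-seq) had been done for 3 proteins in Ba/F3, a mouse line of pro-B cells whose growth requires interleukin 3 (IL3). The proteins were STAT5A, the transcription factor activated through the IL3 receptor, LSD1, which removes methyl groups from histones as part of CoREST complexes, and HDAC3, the deacetylase of NCoR complexes. All cells had been kept in 1 ng/mL IL3. Those without IL3 were then deprived of the cytokine for 6 h, and those with IL3 received 10 ng/mL IL3 for 30 min after the same 6 h. Each of the 6 groups had 2 biological replicates according to the labels, with 1 list of called regions per replicate and 1 for the pooled replicates. The data come from 1 cell line and hold no expression values, so neither the cells' identity nor the output of a gene could be checked against markers.

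The mitochondrial ribosome translates the few messenger RNAs transcribed from mitochondrial DNA, which encode core subunits of the respiratory chain and of ATP synthase. Its RNAs come from the mitochondrial genome, but every one of its proteins is encoded in the nucleus, made in the cytosol and imported. Promoters of nuclear genes for mitochondrial proteins are known for binding NRF1, the ETS factor GABP and YY1, while STAT5 binds gamma-activated sites (GAS).

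The promoters of 5 members are shown because the results below turn on them: Mrpl30 for STAT5A called by each replicate with IL3 and by no replicate without it, Mrpl12 for STAT5A called under both conditions, Mrpl53 for LSD1 in all 4 replicates, Mrpl52 for HDAC3 called at its start in 1 replicate without IL3, and Mrpl34 for a GAS match at its start. Each runs 5′ to 3′ on the gene's strand from 250 bases before the RefSeq start to 30 bases after it, on GRCm38.p6. Capitals mark matches on either strand to the NRF1 core GCGCATGC, the ETS core CCGGAAG, the YY1 core AAGATGG or the STAT5 GAS pattern TTCNNNGAA. Mrpl34 lies outside the rule for named genes and was chosen after its values were seen.
Mrpl30 (chr1:37890227-37890506, plus strand): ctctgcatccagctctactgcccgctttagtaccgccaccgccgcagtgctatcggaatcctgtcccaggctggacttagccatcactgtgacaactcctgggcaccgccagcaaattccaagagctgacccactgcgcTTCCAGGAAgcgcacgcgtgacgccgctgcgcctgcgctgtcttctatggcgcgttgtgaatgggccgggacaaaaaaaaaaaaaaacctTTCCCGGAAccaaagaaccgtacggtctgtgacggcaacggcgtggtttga
Mrpl12 (chr11:120484387-120484666, plus strand): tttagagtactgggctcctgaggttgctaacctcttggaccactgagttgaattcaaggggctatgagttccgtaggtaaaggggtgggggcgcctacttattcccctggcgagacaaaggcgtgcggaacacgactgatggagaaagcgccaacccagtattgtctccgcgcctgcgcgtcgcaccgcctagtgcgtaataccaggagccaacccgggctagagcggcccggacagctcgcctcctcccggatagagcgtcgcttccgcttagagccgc
Mrpl53 (chr6:83108858-83109137, plus strand): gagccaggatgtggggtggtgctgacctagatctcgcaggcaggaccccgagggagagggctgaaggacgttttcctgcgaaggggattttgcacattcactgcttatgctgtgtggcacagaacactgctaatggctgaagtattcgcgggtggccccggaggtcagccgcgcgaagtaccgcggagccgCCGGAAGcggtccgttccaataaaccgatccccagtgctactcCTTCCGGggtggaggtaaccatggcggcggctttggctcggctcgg
Mrpl52 (chr14:54426659-54426938, plus strand): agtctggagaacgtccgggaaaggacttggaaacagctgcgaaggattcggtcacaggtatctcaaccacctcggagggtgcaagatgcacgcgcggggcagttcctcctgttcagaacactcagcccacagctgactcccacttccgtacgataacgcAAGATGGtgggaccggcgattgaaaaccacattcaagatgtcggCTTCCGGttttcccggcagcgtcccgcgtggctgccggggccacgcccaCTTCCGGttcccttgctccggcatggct
Mrpl34 (chr8:71464676-71464955, plus strand): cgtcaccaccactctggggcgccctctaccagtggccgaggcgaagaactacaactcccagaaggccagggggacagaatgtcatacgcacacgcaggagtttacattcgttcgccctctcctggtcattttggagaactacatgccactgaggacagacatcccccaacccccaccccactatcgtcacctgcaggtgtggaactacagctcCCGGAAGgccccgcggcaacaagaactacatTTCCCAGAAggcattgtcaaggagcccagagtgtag

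The Mrpl30 stretch held 2 GAS matches, TTCCAGGAA beginning 111 bp upstream of the start and TTCCCGGAA beginning 21 bp upstream. Mrpl34 had a GAS match, TTCCCAGAA, that began 6 bp upstream of its start and spanned it, and an ETS match that began 37 bp upstream. The Mrpl53 stretch held 2 ETS matches and the Mrpl52 stretch 2 ETS matches and 1 YY1 match, while the Mrpl12 stretch held none of the 4 motifs. A match is a string of letters and not a measured binding site.

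The replicate lists differed in size by far more than the pooled ones, from 234 to 15783 regions on assembled chromosomes. The 2 STAT5A lists without IL3 had 352 and 4504 regions, and those with IL3 had 13572 and 6280. For LSD1 the numbers were 1005 and 15783 without and 6476 and 11567 with IL3, and for HDAC3 1632 and 533 without and 683 and 234 with IL3. The depth of each library is unknown, and a missing region means only that none was called. Replicate 1 of STAT5A and of LSD1 without IL3 had the shortest list of its protein, and the differences between conditions and the gained and lost counts of STAT5A and LSD1 are given also without it. A region was assigned to a gene by the distance from its centre to the nearer of the gene's bounds, within 10 kb or within 1 kb. Regions carry a score deposited by the authors, which was used only to rank regions inside 1 list (rank 1 is the highest score, ties share a rank).

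STAT5A regions were found at more mitochondrial ribosomal protein genes with IL3 than without it, and at more other genes too. Without IL3, 2 members had a region within 10 kb in replicate 1 (2.56%, against 1.22% of other genes) and 27 in replicate 2 (34.6%, against 21.4% of other genes). With IL3 there were 31 (39.7%, against 30.1% of other genes) and 38 (48.7%, against 23.7% of other genes). Both counts with IL3 exceeded both counts without it, although replicate 2 without IL3 lay much nearer to them than replicate 1. Both shares of other genes with IL3 likewise exceeded both without it, so a rise with IL3 was not particular to the members. The mean was 14.5 ± 17.7 members without and 34.5 ± 4.95 with IL3 (SD, n = 2), a difference of 20 that was 7.5 with replicate 1 without IL3 left out and 32.5 with replicate 2 without IL3 left out. Cut to the 352 highest-scoring regions each, in a comparison added after seeing the data, the lists gave 2 and 2 members without and 1 and 3 with IL3. So few members remained in each cut list that this cannot show whether the conditions differ at equal list length. An exact permutation test of 2 against 2 lists cannot give a two-sided p below 0.33, so none was run.

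At the gene ends themselves the groups overlapped, since replicate 2 without IL3 had more members than replicate 1 with IL3. Within 1 kb, 2 members (2.56%) had a STAT5A region in replicate 1 without IL3 and 18 (23.1%) in replicate 2, against 0.431% and 13.6% of other genes. With IL3 there were 17 (21.8%) and 22 (28.2%), against 10.7% and 13.6% of other genes. The members' share was thus about the same in replicate 2 of both conditions, and it lay above the share of other genes in each of the 4 lists. Once the replicates were pooled, 31 members had a STAT5A region within 10 kb without IL3 (22.4% of other genes) and 50 with IL3 (37.5% of other genes). Within 1 kb there were 21 members without IL3, 26.9% (95% Wilson interval 18.3 to 37.7) against 13.8% of other genes. With IL3 there were 39, 50% (39.2 to 60.8) against 18.7% of other genes, a ratio of 2.67.

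**Figure D1:**
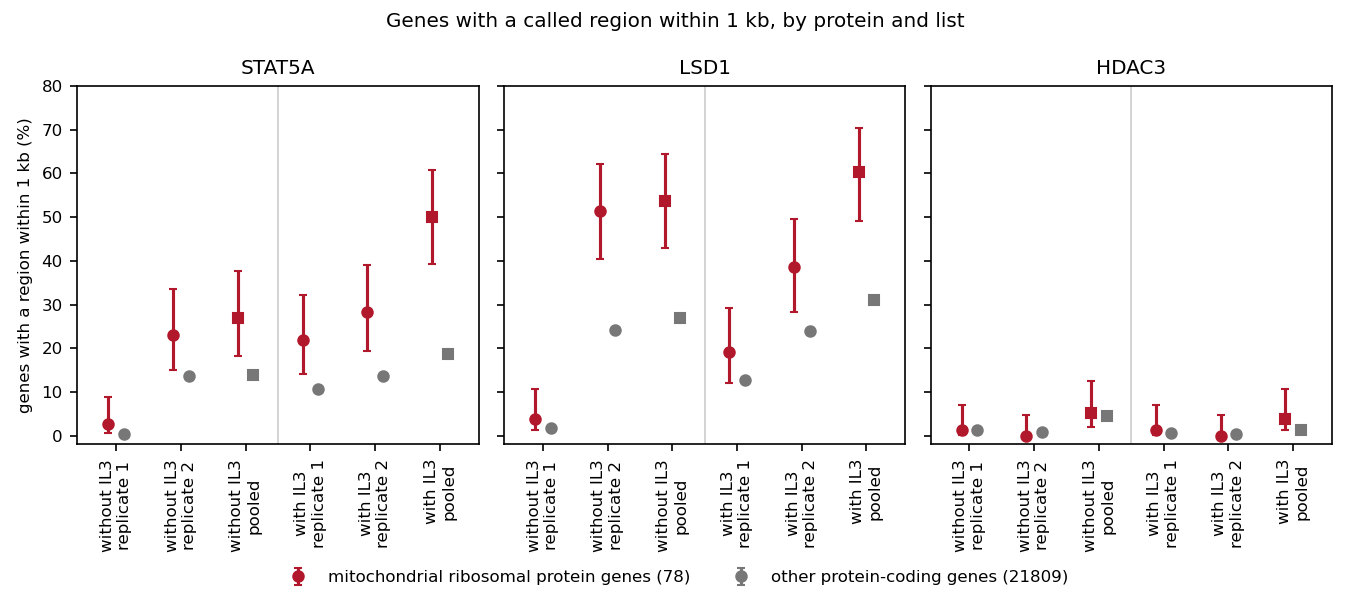
Percent of genes with a called region within 1 kb (y axis) in each replicate list (circles) and pooled list (squares) of STAT5A, LSD1 and HDAC3 (panels), for the 78 mitochondrial ribosomal protein genes (red) and the 21809 other protein-coding genes (grey); bars are 95% Wilson intervals, which cover counting error only. The red points lie above the grey ones in every STAT5A and LSD1 list, reaching 50% against 18.7% for pooled STAT5A with IL3, and close to them for HDAC3.

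Over the pooled lists, 24 members had a STAT5A region within 1 kb with IL3 alone (11.1% of other genes), 6 without IL3 alone (6.27%) and 15 under both conditions (7.57%). The members with one under both conditions included Mrpl1, Mrpl10, Mrpl11 and Mrpl12, whose products form the L1 stalk and the L7/L12 stalk of the large subunit and its base. These were singled out of the 15 for their products and show no preference for stalk genes. At Mrpl1 no replicate list had a STAT5A region within 1 kb. The counts for 1 condition alone hold for the pooled lists only. Mrps27, counted without IL3 alone, had a STAT5A region within 1 kb in replicate 2 with IL3. Mrps36, counted with IL3 alone, had one in replicate 2 without IL3. For the 12 replicate lists a stricter rule was used: a member was counted as gained when both replicates with IL3 and neither without had a region within 10 kb. By it 9 members gained STAT5A (11.5%, against 6.29% of other genes), none lost it (0.0229% of other genes), and Mrpl12 alone had it in all 4 lists (0.633% of other genes). Without replicate 1 without IL3, in a comparison added after seeing the data, 11 members had it in the remaining 3 lists (8.26% of other genes). The gained members were Mrpl4, Mrpl14, Mrpl16, Mrpl30, Mrpl48, Mrpl58, Mrps18a, Mrps31 and Mrps34. The number gained was 10 without replicate 1 without IL3 and 19 without replicate 2 without IL3. It was 3 when the distance was 1 kb and 1 with lists of equal length. A loss needs a region in replicate 1 without IL3, where only 2 members had one within 10 kb, so the rule could hardly count any. With that list left out, 6 members counted as lost. Other genes were not counted under these settings, so these numbers cannot be set against a background.

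The rule by distance lets each replicate bring a different region, and a comparison added after seeing the data asked for the same one. Of the 9 gained members, 4 had overlapping regions in both replicates with IL3 (44.4%, against 50.7% of the other gained genes): Mrpl4, Mrpl14, Mrpl30 and Mrpl48. Counting every member with a region shared by both replicates with IL3 and overlapping none without added Mrpl10, Mrpl11 and Mrpl22, 7 members in all (5.19% of other genes). It was 8 and 9 members with replicate 1 or replicate 2 without IL3 left out (5.26% and 6.17% of other genes). No member had such a STAT5A region without IL3 alone (0.0504% of other genes). Mrpl22, named here after its value was seen, encodes a protein lining the exit tunnel of the large subunit.

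Among the 4 gained members whose replicates overlapped, Mrpl30 was the one with the region at its own start. Mrpl30 encodes a large-subunit protein conserved with bacteria. Its STAT5A score with IL3 was 294.6 in replicate 1 (rank 479 of 13572) and 125.0 in replicate 2 (rank 170 of 6280), and neither replicate without IL3 had a region within 10 kb. The pooled region with IL3, chr1:37890278-37890452, scored 205.1 (rank 421 of 15543), with its centre 112 bp upstream of the start. The upstream GAS match printed above, TTCCAGGAA at bases 37890366 to 37890374, lay inside the region of both replicates with IL3, and the match nearer the start lay outside both. The pooled list without IL3 held a weak region at chr1:37890138-37890296 (12.6, rank 4650 of 5043) that did not reach either match. Mrpl30 starts 28 bp from the end of its neighbour Mitd1, and the centre of the pooled region with IL3 lay nearer to Mitd1 (84 bp).

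The other 3 lay nearer another gene or far from the member. At Mrpl14, whose product sits at the interface with the small subunit, the STAT5A region was the highest-scoring one near any member in the pooled list with IL3 (307.6, rank 119 of 15543). It scored 391.6 in replicate 1 (rank 214 of 13572) and 190.1 in replicate 2 (rank 59 of 6280) with IL3 and was not called without it, but it lay 8420 bp beyond the 3′ end of the gene. At Mrpl48 the region scored 97.0 (rank 2346 of 13572) and 100 (rank 271 of 6280) with IL3. Its pooled centre lay 810 bp inside the Mrpl48 start and 84 bp from an end of Rab6a, which encodes a Golgi GTPase. At Mrpl4, which encodes another tunnel protein, the region scored 138.0 (rank 1545 of 13572) and 75 (rank 472 of 6280) with IL3. It lay 7042 bp from Mrpl4 and 59 bp from an end of Icam1, which encodes a cell adhesion molecule.

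In the other 5 gained members, the regions of the replicates with IL3 did not overlap. Mrps18a is 1 of 3 mammalian homologues of the bacterial protein S18. It had a STAT5A region 31 bp inside its start in replicate 2 (30.0, rank 3978 of 6280) and one 4446 bp from its 3′ end in replicate 1 (26.1, rank 9276 of 13572). Mrpl58 encodes a peptidyl-tRNA hydrolase that frees stalled mitochondrial ribosomes. It had a region 225 bp from its 3′ end in replicate 1 (22.4, rank 10920 of 13572) and one 78 bp inside its start in replicate 2 (30.0, rank 3978 of 6280). Mrpl16, which encodes a conserved large-subunit protein, had regions 901 bp inside its start in replicate 1 (37.3, rank 6408 of 13572) and 2299 bp beyond its 3′ end in replicate 2 (30.0). These regions stood in the middle or lower part of their lists. For Mrps31 and Mrps34, both small-subunit proteins without a bacterial counterpart, the regions of the replicates were likewise apart: those of Mrps31 lay 3481 and 4481 bp from the gene in replicate 1 and 5180 bp in replicate 2, and those of Mrps34 8986 bp in replicate 1 and 277 bp in replicate 2.

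Mrpl11 and Mrpl12 encode neighbours in the stalk region where translation factors bind, and their STAT5A regions differed. At Mrpl11 the region upstream of the start scored 279.7 in replicate 1 (rank 522 of 13572) and 45.0 in replicate 2 (rank 1504 of 6280) with IL3. Without IL3 only replicate 2 had a region, a separate one 145 bp inside the start (20.4, rank 2542 of 4504). Mrpl12 had a STAT5A region at its start in both replicates without IL3, at 49.2 (rank 51 of 352) and 84.9 (rank 24 of 4504). With IL3, replicate 1 called it lower in its list (44.8, rank 5298 of 13572), and replicate 2 had only a region 3412 bp beyond the 3′ end (25, rank 5782 of 6280). In the pooled lists it ranked 16 of 5043 without IL3 (73.3) and 4152 of 15543 with IL3 (38.5). Mrpl12 was thus the member with the highest STAT5A rank in the pooled list without IL3, ahead of Mrps33 (29.3, rank 267) and Mrps10 (27.2, rank 342). Lists of such different length give ranks that show no change between conditions.

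LSD1 regions lay at more members than STAT5A regions did in both pooled lists, and the lists with and without IL3 overlapped. Within 10 kb, 4 members had an LSD1 region in replicate 1 without IL3 (3.84% of other genes) and 53 in replicate 2 (41.4%), while with IL3 there were 24 (22.6%) and 44 (37.5%). The mean was 28.5 ± 34.6 without and 34.0 ± 14.1 with IL3 (SD, n = 2). The difference of 5.5 was smaller than either SD; it was -19.0 with replicate 1 without IL3 left out, 30.0 with replicate 2 without IL3 left out, and -0.5 with lists cut to 1005 regions. Within 1 kb there were 3 members (3.85%, against 1.76% of other genes) and 40 (51.3%, against 24.2%) without IL3, and 15 (19.2%, against 12.7%) and 30 (38.5%, against 23.9%) with IL3. Pooling gave 53 members with one within 10 kb without IL3 (43.3% of other genes) and 58 with IL3 (46.3%). Within 1 kb, 42 did without IL3, 53.8% (42.9 to 64.5) against 27.0% of other genes. With IL3, 47 did, 60.3% (49.2 to 70.4) against 31.0% of other genes, so the members' share was 2.0 and 1.94 times that of other genes.

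No member gained LSD1 (1.77% of other genes) or lost it (0.0642% of other genes) under the replicate rule. With replicate 2 without IL3 left out, 15 members counted as gained and 0 as lost. With replicate 1 without IL3 left out, 0 members counted as gained and 14 as lost. Leaving out a list loosens the rule for every gene, and other genes were not counted this way. These numbers therefore show only how far the count depends on the rule. When the same region had to be called with IL3 by each replicate and never without it, 1 member was counted, Mrps16 (3.68% of other genes), and for the reverse none was (0.307% of other genes). The 1 member became 2 with replicate 1 without IL3 left out and 10 with replicate 2 without IL3 left out (3.79% and 12.1% of other genes). Over the pooled lists, 33 members had LSD1 within 1 kb under both conditions (22.1% of other genes), 14 with IL3 alone (8.92%) and 9 only without it (4.88%). The number 2 replicates of the 2 conditions, both with long lists, shared 23 members within 1 kb (29.5%, against 16.5% of other genes), and the number 1 replicates shared 2, Mrps5 and Mrpl53 (2.56%, against 1.19%).

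Mrps5, Mrps7 and Mrpl53 had an LSD1 region within 10 kb in all 4 replicates (2.85% of other genes), and 18 members had one in the 3 lists other than replicate 1 without IL3 (17.3% of other genes). Mrps5 encodes a conserved small-subunit protein. Its region lay 133 to 221 bp inside the gene start in all 4 lists, at 60.5 (rank 835 of 1005) and 36.6 (rank 4105 of 15783) without IL3 and at 27.2 (rank 1294 of 6476) and 58.6 (rank 611 of 11567) with IL3. Mrpl53, a mitochondria-specific large-subunit protein, had a region near its start at 75.6 (rank 381 of 1005) and 30.5 (rank 5995 of 15783) without IL3, and at 22.3 (rank 2290 of 6476) and 21.3 (rank 7411 of 11567) with IL3. Its start lies 13 bp from an end of Ccdc142, and the centres of these regions were 26 bp upstream to 147 bp inside Mrpl53. Around Mrps7, which encodes a small-subunit head protein, the region called in 3 of the 4 lists lay 4621 to 4677 bp beyond the 3′ end and nearer to Mif4gd.

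The highest-scoring LSD1 region near a member lay inside Mrps31, away from its ends. Mrps31 led both pooled lists with a region 3048 bp inside the gene without IL3 and 3058 bp with IL3 (86.2, rank 465 of 16886 without IL3, and 48.8, rank 458 of 17087 with IL3). It was called in replicate 2 without IL3 (100.6) and in both replicates with IL3 (54.5 and 45.3). Next in the list without IL3 stood Mrpl45 and Mrps17, each at 50.7 (rank 1643 of 16886). The Mrpl45 region lay 4558 bp from the gene. That of Mrps17 lay 6292 bp from Mrps17 and 12 bp from an end of Nipsnap2. With IL3, Mrps5 (38.5, rank 823 of 17087) and Mrpl4 (37.2, rank 899 of 17087) followed Mrps31.

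HDAC3 regions were called at few members. Within 10 kb, 4 members had one in replicate 1 without IL3 (4.09% of other genes) and 0 in replicate 2 (2.08%), while with IL3 there were 1 (1.7%) and 0 (0.867%). Within 1 kb the counts were 1 (1.2% of other genes) and 0 (0.784%) without IL3, and 1 (0.573%) and 0 (0.321%) with IL3. The mean within 10 kb was 2.0 ± 2.83 without and 0.5 ± 0.71 with IL3 (SD, n = 2); the groups overlapped, and with lists cut to 234 regions the difference of -1.5 became 0.5. The pooled lists gave 10 members within 10 kb without IL3 (10.3% of other genes) and 3 with IL3 (3.76%). Within 1 kb they gave 4 members, 5.13% (2.01 to 12.5) against 4.39%, and 3 members, 3.85% (1.32 to 10.7) against 1.41%. Both intervals hold the share of other genes.

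By the replicate rule no member gained HDAC3 (0.0% of other genes), lost it (0.422%) or had it in all 4 lists (0.0183%). None had the same HDAC3 region in both replicates of 1 condition alone either, with IL3 (0.0% of other genes) or without (0.284%). Each of these rules needs a region in a replicate 2 list, and neither of those lists had one within 10 kb of a member. The counts were thus fixed at 0 and cannot show whether HDAC3 changed with IL3. In the pooled lists Mrpl1, Mrpl2, Mrpl20 and Mrpl52 had HDAC3 within 1 kb without IL3 alone (3.87% of other genes), Mrps18a, Mrps18b and Mrpl21 with IL3 only (0.894%), and none under both conditions (0.518%). Most of these pooled regions overlapped a region in neither replicate. It was 3 of 4 without IL3 (75%, against 63.1% at other genes) and 2 of 3 with IL3 (66.7%, against 66.1%). Mrpl52, a mitochondria-specific large-subunit protein, was the member whose start was called in replicate 1 without IL3 (50.8, rank 301 of 1632). The pooled region there, chr14:54426724-54426870, scored 24.5 (rank 660 of 3347). Mrps18b, another homologue of S18, had an HDAC3 region in replicate 1 with IL3 (27.4, rank 104 of 683), 667 bp upstream of its start and 595 bp from an end of Ppp1r10. Mrpl2 and Mrpl20 lie outside the rule for named genes and are given because the count is small.

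STAT5A and LSD1 were called together at many of the same members. In the pooled lists without IL3, 15 members had both within 1 kb (10.7% of other genes), 27 had LSD1 and not STAT5A (16.3%), 6 had STAT5A and not LSD1 (3.15%) and 29 had none of the 3 proteins (69.3%). With IL3, 29 had both (14.6% of other genes), 18 LSD1 and not STAT5A (16.4%), 10 STAT5A and not LSD1 (4.1%) and 21 none (64.8%). Mrpl30 and Mrpl12 were among those with STAT5A and not LSD1 in both conditions. All 3 proteins were called in the pooled lists at Mrpl1 without IL3 (2.03% of other genes) and at Mrps18a, Mrps18b and Mrpl21 with IL3 (0.867%). Most of these rested on pooled calls alone for some protein. At Mrpl1 no replicate without IL3 had a STAT5A or HDAC3 region within 1 kb, and at Mrpl21 no replicate with IL3 did. At Mrps18a no replicate with IL3 had an HDAC3 region within 1 kb. Among genes with STAT5A, LSD1 was also called at 29 of 39 members with IL3, beside 3184 of 4079 other genes. Without IL3 the numbers were 15 of 21 members, beside 2330 of 3018 other genes. LSD1 was thus not more frequent beside STAT5A at members than at other genes. Of the 41 pooled STAT5A regions with IL3 within 1 kb of a member, 20 (48.8%) overlapped an LSD1 region of the same condition, against 45.5% of the STAT5A regions at the ends of other genes. In the other direction, 20 of the 50 pooled LSD1 regions with IL3 at members (40%) overlapped a STAT5A region, against 25.3% at other genes.

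**Figure D2:**
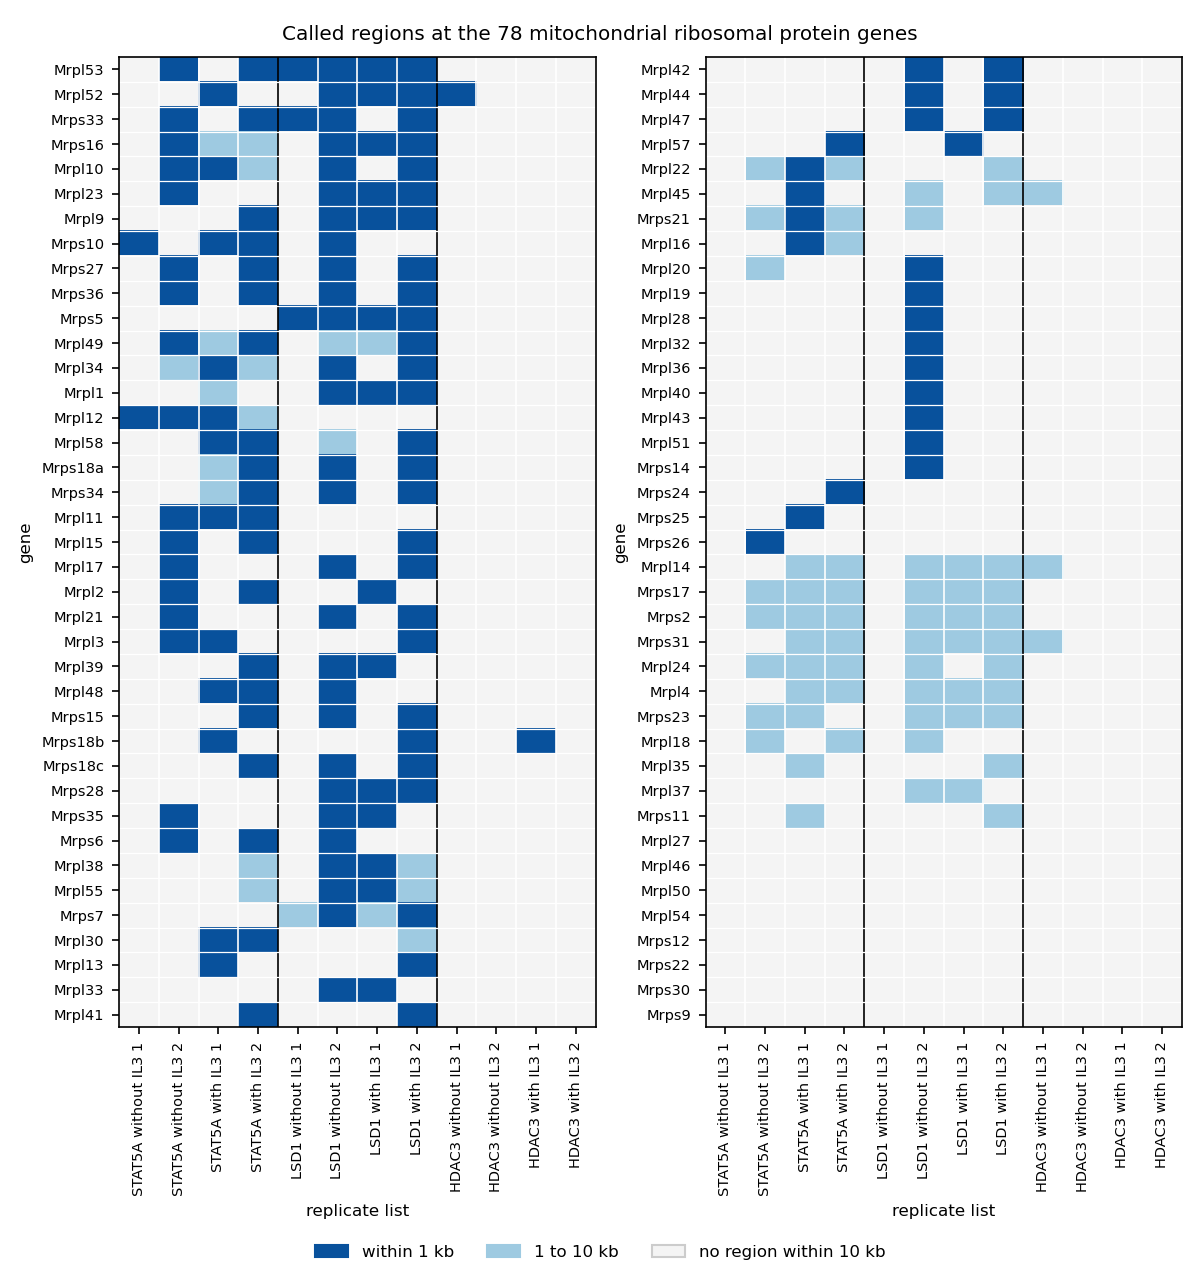
Presence of a called region at each of the 78 members (rows, in 2 panels) in each of the 12 replicate lists (columns): dark blue within 1 kb, light blue from 1 to 10 kb, pale grey none within 10 kb; black lines part STAT5A, LSD1 and HDAC3. The dark cells fill the columns of STAT5A and LSD1 unevenly, with 2 and 3 members in replicate 1 without IL3 of STAT5A and LSD1, and the HDAC3 columns are almost empty.

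Few members were without any region. Of the 78 genes, 4 had no region within 10 kb in any of the 18 lists (5.13%, against 42.3% of other genes): Mrpl27, Mrpl46, Mrps9 and Mrps12, the last of which encodes a protein of the decoding centre. A region within 10 kb in 4 or more of the 12 replicate lists was found at 31 members (39.7%, against 25.3% of other genes). A region within 1 kb in 4 or more of the 12 replicate lists was found at 11 members (14.1%, against 10.9% of other genes). The median was 2.0 replicate lists for members and 0.0 for other genes, but the highest number was 6 for members and 11 for other genes. Mrpl53 had 6, Mrpl52 and Mrps33 had 5, and Mrpl9, Mrpl10, Mrpl23, Mrps5, Mrps10, Mrps16, Mrps27 and Mrps36 had 4. At Mrps33, a small-subunit protein, every one of these regions was STAT5A or LSD1 and its centre lay at most 131 bp from the start, pooled regions included. Mrps27 encodes a pentatricopeptide repeat protein of the small subunit, and the product of Mrps36 is also known as a subunit of the 2-oxoglutarate dehydrogenase complex.

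The members' regions were placed at gene starts as those of other genes were. Where the start is known, 34 of 37 pooled STAT5A region and gene pairs with IL3 lay at the start and not the 3′ end (91.9%, against 91.2% for other genes). For LSD1 with IL3 it was 43 of 43 (100%, against 93.6%). RefSeq promoter windows, from 250 bases before to 50 after the start, were at hand for 69 members and 17423 other genes. In the pooled lists STAT5A regions overlapped 16 member windows without IL3 (23.2%, against 10.7% of other windows) and 28 with IL3 (40.6%, against 11.7%). LSD1 overlapped 32 (46.4%, against 21.3%) and 35 (50.7%, against 22.8%), and HDAC3 2 (2.9%, against 2.89%) and 2 (2.9%, against 0.763%). STAT5A with IL3 showed the widest ratio of the pooled STAT5A and LSD1 lists, in these windows as within 1 kb of either end.

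**Figure D3:**
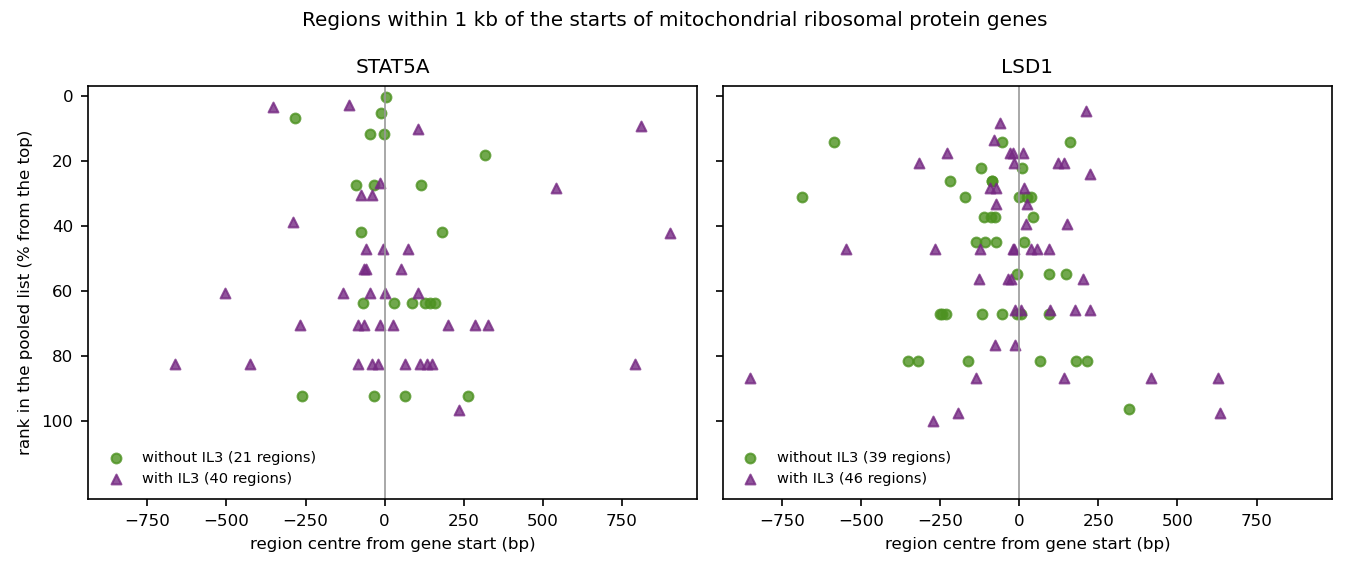
Centres of the pooled STAT5A (left) and LSD1 (right) regions within 1 kb of the start of a member, by distance from the start in bp (x axis, negative upstream) and by rank in their list as percent from the top (y axis, top of the list uppermost), without IL3 (green circles) and with IL3 (purple triangles). The points gather around the start but spread over the whole range of ranks, and the uppermost green circle of the left panel is Mrpl12, rank 16 of 5043.

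Few of the pooled regions at members overlapped a region in both replicates, as at other genes. The median rank of the 41 pooled STAT5A regions with IL3 within 1 kb of members was 9435 of 15543, the same as that of the regions at other genes' ends. Of these 41, 4 overlapped a region in both replicates (9.76%, against 11.1% at other genes), 26 in 1 replicate and 11 in neither (26.8%, against 19%). Of the 50 LSD1 regions with IL3, 8 overlapped a region in both replicates (16%, against 18.2%), 27 in 1 and 15 in neither (30%, against 27.8%). Among regions at or above the median score of each pooled list, ties included (8270 of 15543 with and 3204 of 5043 without IL3 for STAT5A), 14.1% of members had STAT5A within 1 kb with IL3 (7.68% of other genes) and 16.7% without it (9.32%), so the order of the 2 conditions turned. LSD1 was then found at 38.5% with IL3 (19.1% of other genes) and 28.2% without (13.7%), and HDAC3 at 3.85% with IL3 (0.532%) and 1.28% without (2.22%). None of the members' pooled regions was among the 207 found in all 6 pooled lists whatever the antibody. Within 1 kb of other genes the share of such regions was 1.13% and 0.806% for STAT5A without and with IL3. It was 0.538% and 0.462% for LSD1, and 3.53% and 11.1% for HDAC3, which had few regions at members. The absence thus does not set the members apart.

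Many members share an end with another gene. Another protein-coding gene ended within 1 kb of 44 members (56.4%), against 24.7% of other genes, 36.1% of cytosolic ribosomal protein genes and 59.0% of genes for subunits of oxidative phosphorylation (OXPHOS). At such shared ends, 18 of 44 members had pooled STAT5A within 1 kb with IL3 (40.9%, against 30.7% of other genes with such a neighbour). Of the 34 members without one, 21 did (61.8%, against 14.8%). For LSD1 with IL3 the shares were 52.3% (50.8% of other genes) with a neighbour and 70.6% (24.5%) without one. The gap to other genes was thus wider at members whose ends stand alone, and this difference between the classes was not tested.

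Members with Mrpl and Mrps symbols had shares whose intervals overlapped widely; the split follows the symbol, and some proteins with an Mrps symbol sit in the large subunit. Pooled STAT5A with IL3 lay within 1 kb of 24 of 49 Mrpl members (49.0%, 35.6 to 62.5) and 15 of 29 Mrps members (51.7%, 34.4 to 68.6). For LSD1 with IL3 it was 28 (57.1%, 43.3 to 70.0) and 19 (65.5%, 47.3 to 80.1). Other genes of mitochondrial gene expression, from lists set for this comparison, gave shares between 25% and 60% for STAT5A with IL3. STAT5A with IL3 was within 1 kb of 7 of 16 mitochondrial translation factor genes (43.8%), 9 of 23 mitoribosome assembly genes (39.1%) and 5 of 20 mitochondrial aminoacyl-tRNA synthetase genes (25%). It was also within 1 kb of 5 of 10 genes for mitochondrial DNA transcription and replication (50%), and of 3 of 5 mitoribosomal protein genes that have other symbols (60%). LSD1 with IL3 was found at 8, 16, 12, 5 and 4 genes of these lists in the same order.

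The shares of STAT5A at 2 other gene groups were within 10 percentage points of the members' share in both pooled lists. In the pooled lists with IL3, STAT5A lay within 1 kb of 40 of 83 cytosolic ribosomal protein genes (48.2%) and 33 of 78 OXPHOS subunit genes (42.3%), beside the 50% of the members. For LSD1 with IL3 the shares were 55.4% and 60.3%, beside 60.3%. Without IL3 the LSD1 shares were 37.3% and 48.7%, beside 53.8%, and the STAT5A shares 22.9% and 23.1%, beside 26.9%. HDAC3 lay at 8.43% and 12.8% without IL3, beside 5.13%, and at 4.82% and 5.13% with IL3, beside 3.85%. Among regions at or above the median score the order varied. LSD1 was at 12% and 14.1% without IL3, beside 28.2%, and at 30.1% and 23.1% with IL3, beside 38.5%. STAT5A was at 13.3% and 20.5% without IL3, beside 16.7%, and at 22.9% and 17.9% with IL3, beside 14.1%. HDAC3 was at 8.43% and 10.3% without IL3, beside 1.28%, and at 2.41% and 1.28% with IL3, beside 3.85%. Of genes for regulators of mitochondrial biogenesis, 2 of 9 had STAT5A with IL3 and 5 of 9 without. No difference between the members and these groups was tested, and the intervals overlap in each complete pooled list.

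**Figure D4:**
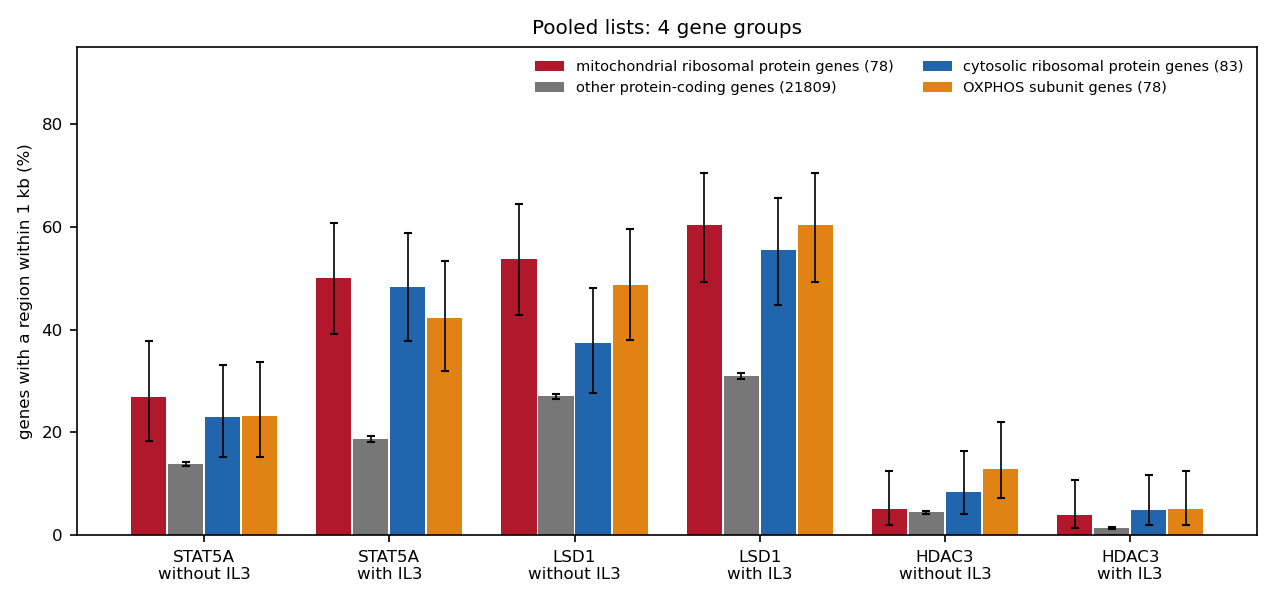
Percent of genes with a pooled region within 1 kb (y axis, bars from 0) for each protein and condition, for mitochondrial ribosomal protein genes (red), other protein-coding genes (grey), cytosolic ribosomal protein genes (blue) and OXPHOS subunit genes (orange); lines are 95% Wilson intervals. The 3 named groups stand above the grey bars for STAT5A and LSD1, and their intervals overlap one another.

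The members' promoters also held more matches to some motifs than promoters at large. Motifs were searched on both strands of the 300-base windows, and matches of different motifs may overlap, since CGGAA occurs in both GAS and ETS matches and AAG in both ETS and YY1 matches. The ETS core CCGGAAG was in 24 of 69 member windows (34.8%, against 11.9% of all promoters), the YY1 core AAGATGG in 13 (18.8%, against 6.35%) and the NRF1 core GCGCATGC in 8 (11.6%, against 3.61%). The GAS pattern TTCNNNGAA was in 6 (8.7%, against 7.78%), the E-box CACGTG in 5 (7.25%, against 7.91%), CCAAT in 27 (39.1%, against 39.2%) and the GC box GGGCGG in 34 (49.3%, against 46.3%). Of the 28 member windows overlapped by pooled STAT5A with IL3, 3 held a GAS match, and so did 3 of the other 41. For the ETS core it was 12 of 28 and 12 of 41. Only at Mrpl30 did regions of both STAT5A replicates with IL3 cover a GAS match among the 69 windows, while at Mrpl34 and Mrps25 replicate 1 alone did.

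**Figure D5:**
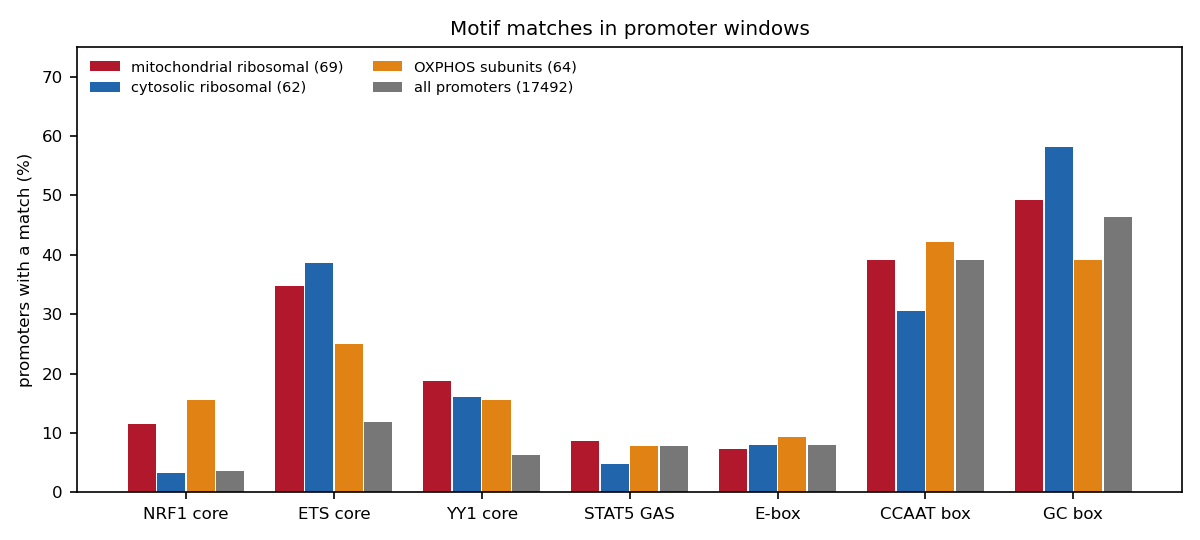
Percent of promoter windows with at least 1 match (y axis, bars from 0) to each of 7 motifs (x axis), for mitochondrial ribosomal protein genes (red), cytosolic ribosomal protein genes (blue), OXPHOS subunit genes (orange) and all promoters (grey). The ETS, YY1 and NRF1 cores stand higher in the red bars than in the grey, at 34.8%, 18.8% and 11.6% against 11.9%, 6.35% and 3.61%. The blue and orange bars also stand above the grey for ETS and YY1, and the orange for NRF1. For the STAT5 GAS the red and grey bars are nearly level.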

How the data were processed

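ChIP-seq regions of STAT5A, LSD1 and HDAC3 were analysed in 12 libraries and 6 pooled lists. According to the submitters' processing notes, Trimmomatic 0.30, Bowtie2 2.1.0, Picard 1.92, HOMER 4.8 and mm10 were used; how the peaks were called (settings, control, threshold) is not given in the sources used here. The authors deposited 1 score per region, undefined in these sources, and regions of 1 fixed width per list. No depth is given, so a missing region cannot be told from a shallow library. The input library, a sample of neither condition, was not used.

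Only regions on assembled chromosomes entered. A region belongs to a gene when its centre lies within 10 kb or 1 kb of either bound in the RefSeq table of GRCm38.p6; regions inside long genes but far from both bounds are not counted. Overlap means at least 1 bp. Strands, starts and sequences come from the RefSeq promoter table, which matched 69 of 78 members. Starts there can differ from the gene bound. The tools were matplotlib 3.10.9, pandas 2.3.3, scipy 1.17.1 and numpy 2.4.6 under Python 3.11.15; the assignment and overlap steps were tested on simulated data. Wilson intervals at 95% treat genes as independent and cover counting error only, not the spread between libraries.

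Members and gene lists were chosen with earlier results of these data known, so shares are described and no test over the members was run. Named are members in most replicate lists, those with the 3 highest scores per pooled list, those gained or lost, and those without a region, which gave 31 genes. Alternatives changed the distance, its edge, the score range, the gene body, neighbours, regions common to all pooled lists, and left out each replicate. Added after seeing the data were lists of equal length, promoter windows, the same-region rule, differences within a replicate number, and 2 further counts without a replicate.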

Additional observations from a re-analysis of the deposited data

How the results depend on the processing

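Of 165 alternatives to 15 results, 125 were counted as unchanged. These did not turn to the opposite sign and moved by less than the replicate SD (differences), stayed inside the Wilson interval (pooled shares) or stayed within 1.5 times (counts). An HDAC3 difference of 0.0 within 1 kb passed beside -1.5, as did counts of 0 that stayed 0. The SDs were wide, so that LSD1 differences of 5.5 and 30.0 were counted as alike. The number is thus a loose measure of stability. No paired analysis was possible because no result comes from a test that could take the replicate number as a block. Within numbers 1 and 2, the count with minus without IL3 within 10 kb was 29 and 11 for STAT5A, 20 and -9 for LSD1, and -3 and 0 for HDAC3. The gap in STAT5A between conditions was not seen in lists of equal length, where few members had any region. Cut to the 352 highest-scoring regions of each list, 2 and 2 members without IL3 and 1 and 3 with IL3 had STAT5A within 10 kb, a difference of 0.0 in place of 20. Counts this small cannot show a gap, and whether list length accounts for it was not tested. Equal lengths also gave 1 gained and 1 lost member for STAT5A, and turned the difference for LSD1 to -0.5 and for HDAC3 to 0.5. This alternative was chosen after seeing the data, as was the same-region rule, which gave 1 gained member for LSD1. The number of members that gained STAT5A, 9, was 5 within 5 kb, 3 within 1 kb and 4 among members without a neighbouring end within 1 kb. Keeping the regions at or above the median score moved the pooled shares within 1 kb to 16.7% and 14.1% for STAT5A without and with IL3, 28.2% and 38.5% for LSD1, and 1.28% and 3.85% for HDAC3. Members without a neighbouring end gave 61.8% for STAT5A and 70.6% for LSD1 with IL3.

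With each replicate left out in turn, the difference ranged from 7.5 to 32.5 for STAT5A, from -19.0 to 30.0 for LSD1 and from -3.5 to 0.5 for HDAC3. Gained members ranged from 10 to 19, 0 to 15 and 0 to 1 for the 3 proteins, and lost members from 0 to 6, 0 to 14 and 0 to 4. Other genes were not counted for these gained and lost ranges, and the rule is looser for every gene when a list is left out. With 1 replicate in place of the pool, the share within 1 kb ranged from 2.56% to 23.1% for STAT5A without and 21.8% to 28.2% with IL3, from 3.85% to 51.3% and 19.2% to 38.5% for LSD1, and from 0.0% to 1.28% for HDAC3 in each condition. Why the replicate lists differ in length was not tested, and without read totals the depth behind them is unknown.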
